A study of Bombyx mori with 12 samples.

Results

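Ovaries of Bombyx mori, the domestic silkworm, hold 70 annotated gene models that carry neither a name nor a product and whose values did not overlap between the lines WT and TBH at either pupal stage. They were chosen by their values. A row of the table was taken if its ID starts with BGIBMGA, its name and description are blank, and all 6 TBH values lay above all 6 WT values or all below them. In addition, the mean of the 6 TBH values plus 1, divided by the mean of the 6 WT values plus 1, had to be at least 2 or at most 0.5. Of 13524 unnamed rows in a table of 15745, 45 were higher and 25 were lower in TBH. Because the line contrast chose these rows, their line differences are given as a description and were not tested.

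The study asks which ovarian transcripts change in silkworms with hyperproteinemia, a state in which the hemolymph holds more protein than usual. Total RNA was sequenced from ovaries at the pupal stages P2 and P4, with 3 samples each of WT at P2, WT at P4, TBH at P2 and TBH at P4. The labels spell out neither TBH nor the genotype behind it, and give no treatment other than the line, and no age beyond the stage. They speak of 5 dissected female pupae and of n = 3, without saying whether a sample pools animals, so the p-values below rest on a spread among samples that may be technical. The values are normalized expression values deposited by the authors in a unit that the table does not name. Their depth in reads is unknown, so no counting interval can be given, and levels are compared between samples of a row, not between rows.

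In the silkworm, the ovarioles grow within the pupa, where follicles take up yolk precursors from the hemolymph and are then covered by a vitelline membrane and a chorion. BGIBMGA numbers are identifiers of predicted gene models of the silkworm genome. A model without a name is a predicted transcript to which the table attaches no function, and none is assigned here. The reference table of gene names matched 0 of these IDs, so positions and sequences are not given. An exact 0 in this table may be a failed estimate. The ribosomal protein genes RPS24, RPS12 and RPL27, which growing cells use, were listed at 0 in all 12 samples, and for 432 rows some sample was at 0 while another exceeded 20. Zeros are therefore written as listed at 0, and no fold of means is formed against a line at 0. The ratio of the rule, given for such rows too, is then the mean of the other line plus 1, and depends on the added 1.

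Per sample, the values added up to 468558.9 to 664133.6, with 6399 to 7772 rows above 0. Across the 5235 rows tested below, which are not independent replicates, log2 values of replicates correlated at 0.838 to 0.938. The lowest correlations were among the 3 WT samples at P2 (0.838 to 0.889), of which replicate 2 had the highest sum and the fewest rows above 0 of all 12 samples. Of 8 ovary and germ line genes found by name, 6 were above 0 in some sample. At P2 their summed value ran from 13.6 to 31.2 in WT and from 9.79 to 16.0 in TBH, and at P4 from 539.98 to 1212 in WT and from 408 to 509 in TBH. At P4 the lines did not overlap, and most of the sum came from the vitelline membrane protein VMP23. The chorion factor CBZ went the other way, with means at P4 of 1.087 in WT and 10.403 in TBH. The chorion factor C/EBP was lower in TBH, at 3.343 and 0.757. The germ line genes NANOSO and SIWI were listed at 0 in all 12 samples. The sums of 2 lists of other tissues did not overlap between the lines at P4 either. The 5 muscle genes (4 above 0 in some sample) summed to 1473 to 2074 in WT and 721 to 1201 in TBH, and the 3 hemocyte genes (2 above 0) to 40.2 to 44.6 and 21.4 to 25.2. At P2 these sums overlapped between the lines, at 350.1 to 727 and 457 to 615 for muscle and at 23.2 to 54.9 and 44.6 to 65.1 for hemocytes, and hemocytin was listed at 0 throughout. Few genes carried these sums. The hemocyte sum was almost all PRO-PO2, with means at P4 of 43.1 in WT and 23.7 in TBH, while PPO1 was at 0 and 0.087. The muscle sum was almost all MLC-2 and A1, while BGIBMGA012961, a myosin light chain, was at 0.113 in WT and 1.047 in TBH. The 15 fat body and hemolymph genes summed to 93.1 to 289 in WT and 124 to 273 in TBH, the 179 cuticle genes (160 above 0) to 1858 to 17007 and 1673 to 8742, and the 3 silk gland genes to 1.44 to 4.86 and 1.33 to 4.54. These ranges cover both stages. Most of the fat body sum came from BGIBMGA004454, and other rows of that list went in opposite directions at P2. There VG had means of 62.87 in WT and 4.213 in TBH, and SP1 of 10.093 and 0.843. BGIBMGA010876, a hemolymph lipoprotein, had 4.45 and 28.513. The part of these lists in the differences below was not tested.

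Taken as sets, the unnamed rows separated the lines on both sides. The 45 higher rows together summed to 377 to 630.2 in the 6 WT samples and to 1737 to 1945 in the 6 TBH samples. The 25 lower rows summed to 291 to 497 in WT and to 49.1 to 62.6 in TBH. All 45 higher rows were above 0 in each TBH sample, against 26 to 32 of them in a WT sample. All 25 lower rows were above 0 in each WT sample, against 9 to 16 of them in a TBH sample. The rule fixes the order of the lines and a least ratio for each row, so these sums describe the choice and support nothing. In whole ovaries, fewer cells of a type and less RNA per cell cannot be told apart. Among all 11209 rows of the table above 0 in some sample, 0.437% met the same value rule in the higher and 0.25% in the lower direction. The unnamed rows made up most of the table, and their shares, 0.442% and 0.246% of 10171 rows above 0, lay beside 0.385% and 0.289% of the 1038 other rows. Since the rule used this contrast, nothing is read from these shares.

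**Figure D1:**
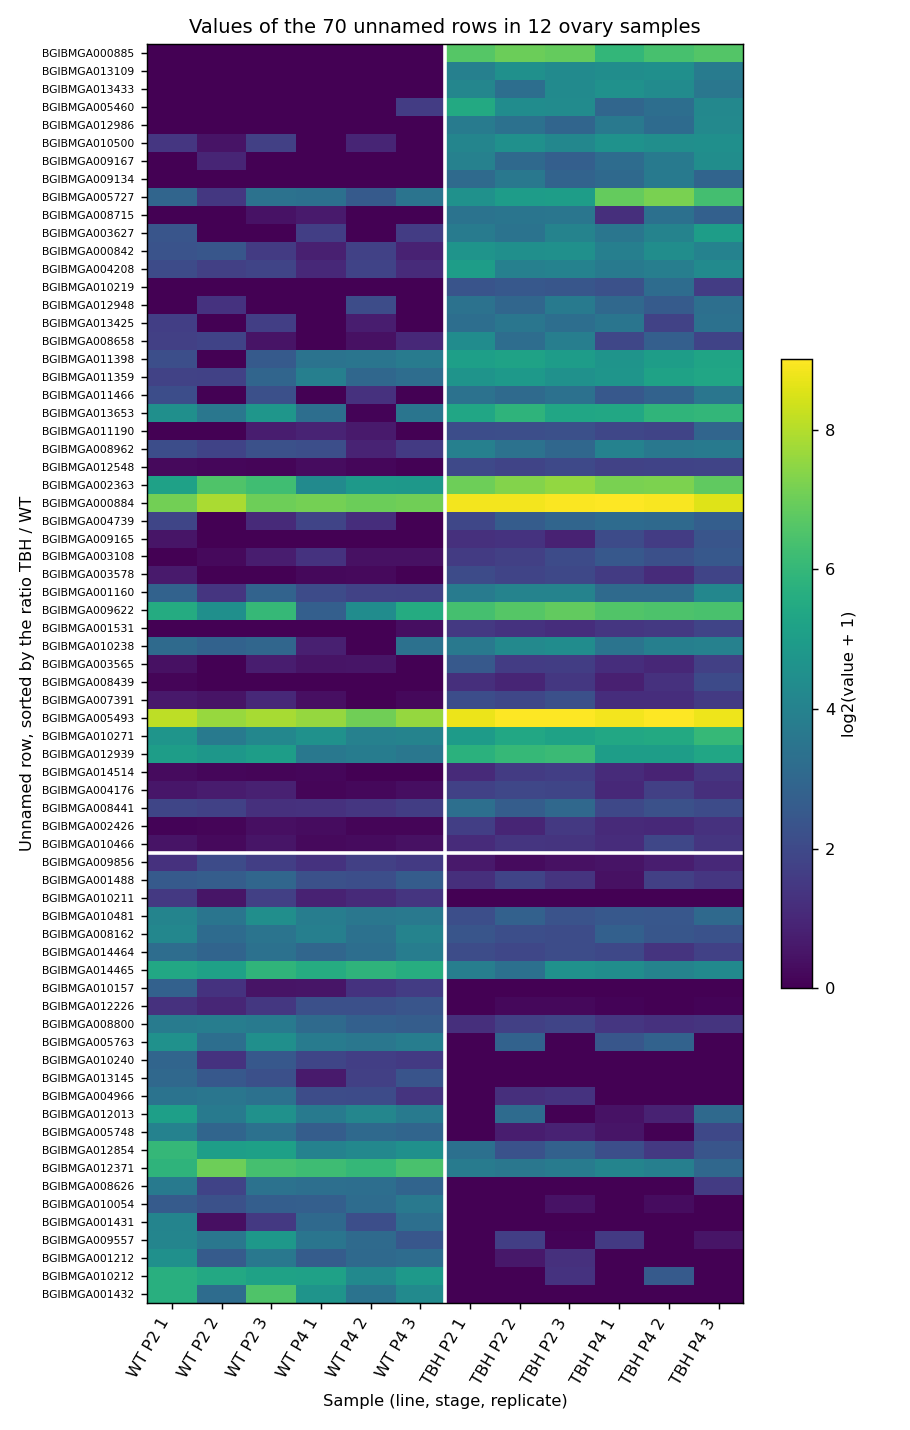
Heatmap of log2(value + 1) for the 70 unnamed rows (vertical axis, sorted by the ratio of TBH to WT) in 12 ovary samples (horizontal axis, by line, stage and replicate). White lines divide WT from TBH and the 45 higher from the 25 lower rows; most rows are dark, near 0, in the line where they are lower.

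In all, 6 unnamed rows were above 0 in all TBH samples and listed at 0 in all 6 WT samples. BGIBMGA000885 had TBH values of 98.95, 127.29 and 117.46 at P2 and of 61.13, 83.81 and 96.26 at P4. It stood farthest apart of the 70 rows, with no TBH value under 61.13 and a ratio by the rule of 98.5. BGIBMGA013109 had 14.09, 22.04 and 18.91 at P2 and 20.34, 21.63 and 12.57 at P4. For BGIBMGA013433 the values were 16.8, 8.65 and 18.73 at P2 and 22.9, 19.3 and 11.05 at P4. In both rows the stages of TBH overlapped, and the ratios were 19.3 and 17.2. The TBH values of BGIBMGA012986 ran from 6.67 to 17.8, those of BGIBMGA009134 from 6.34 to 11.8 and those of BGIBMGA010219 from 2.02 to 8.21. In the whole table, 11 rows (0.0981%) had this pattern, all of them unnamed, and the 5 that missed the ratio had TBH means of only 0.232 to 0.912.

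The mirror pattern, above 0 in all WT samples and listed at 0 in all 6 TBH samples, was also shown by 6 unnamed rows. BGIBMGA001432 had WT values of 50.24, 8.19 and 91.36 at P2 and of 24.2, 9.88 and 18.89 at P4. Its WT samples were widely spread, with replicate 2 the lowest at both stages, and its ratio of WT over TBH by the rule was 34.8. BGIBMGA001431 had WT values of 15.82, 0.29 and 1.85 at P2 and of 7.54, 3.47 and 8.93 at P4. Its lowest WT value, 0.29, lay close to the TBH samples at 0. The other rows of this kind were low in WT too. BGIBMGA013145 ran from 0.58 to 7.3, BGIBMGA010240 from 1.51 to 6.62, BGIBMGA010157 from 0.38 to 5.92 and BGIBMGA010211 from 0.41 to 2.26. In the whole table, 8 rows (0.0714%) had this pattern, 7 of them unnamed.

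Among the remaining higher rows, 21 were listed at 0 in some but not all WT samples. BGIBMGA005460 was listed at 0 in 5 WT samples and at 2.06 in WT P4 replicate 3, while TBH had 43.1, 20.15 and 19.65 at P2 and 6.82, 8.46 and 17.48 at P4. BGIBMGA010500 had WT values of 1.66, 0.39 and 2.24 at P2 and of 0, 0.91 and 0 at P4. Its TBH values were 16.17, 21.89 and 17.26 at P2 and 23.32, 20.96 and 21.41 at P4, so that the lowest TBH sample stood far above the highest WT sample. BGIBMGA009167 was at 0.90 in WT P2 replicate 2 and at 0 in the other WT samples, against TBH values of 5.63 to 20.4. BGIBMGA008715 reached 0.58 in WT and 1.32 to 10.8 in TBH, and BGIBMGA003627 reached 4.15 in WT and 9.86 to 31.1 in TBH. In 7 of these 21 rows, 4 or 5 of the 6 WT samples were at 0.

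Of the remaining lower rows, 10 were listed at 0 in some TBH samples. BGIBMGA010212 had WT values of 50.35, 42.67 and 35.34 at P2 and of 35.21, 18.36 and 27.97 at P4. In TBH it was at 1.49 in P2 replicate 3 and 4.9 in P4 replicate 2 and at 0 in the other 4 samples, so the lines stayed far apart. BGIBMGA001212 stood between 5.08 and 21.9 in WT and at most at 1.37 in TBH, and BGIBMGA009557 between 4.46 and 26.9 in WT and at most at 2.19 in TBH. BGIBMGA010054 had WT values from 3.74 to 11.7 and TBH values up to 0.35. BGIBMGA008626 was at 1.94 in TBH P4 replicate 3 alone, against 2.54 to 12.3 in WT. BGIBMGA012013 reached 7.80 in TBH, where its lowest WT value was 11.8, BGIBMGA005748 reached 2.87 against 5.29, and BGIBMGA004966 reached 1.49 against 1.54.

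**Figure D2:**
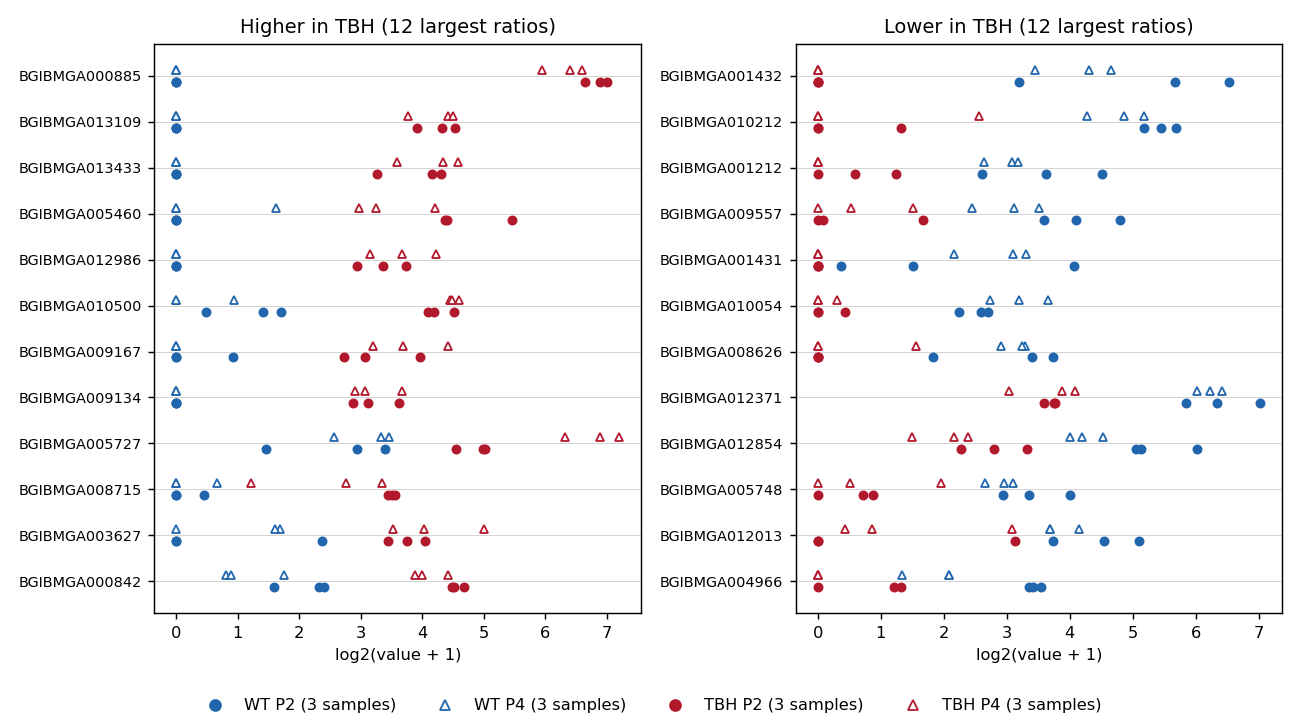
Values on the log2(value + 1) scale (horizontal axis) of the 12 higher and the 12 lower rows with the largest ratios (vertical axis), 1 point per sample, with circles for P2 and triangles for P4. The WT points (blue) and the TBH points (red) of a row do not overlap; BGIBMGA000885 has TBH values from 61.13 to 127.29 and WT at 0.

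No sample was at 0 for 18 of the higher and 9 of the lower rows. Here the ratio of the means of the lines ran from 2.35 to 20.9 in the higher rows, with a median of 4.07, and from 2.76 to 6.70 (WT over TBH) in the lower rows, with a median of 3.26. BGIBMGA000884 had WT values of 136.16, 232.2 and 130.26 at P2 and of 139.65, 126.68 and 134.47 at P4. Its TBH values were 468.92, 469.28 and 499.41 at P2 and 505.99, 493.11 and 380.73 at P4, a 3.13-fold difference of the means. For BGIBMGA005493 the WT values were 274.09, 196.48 and 226.75 at P2 and 190.3, 133.58 and 191.08 at P4. In TBH it stood at 432.09, 518.05 and 509.78 at P2 and at 468.3, 507.47 and 440.26 at P4, which is 2.37-fold. The SDs of TBH around means of 479.2 and 487 at P2 were 17.5 and 47.4, and around means of 459.9 and 472.01 at P4 they were 68.9 and 33.8 (n = 3). BGIBMGA002363 ran from 19.1 to 90.99 in WT and from 113 to 185 in TBH (3.22-fold). BGIBMGA000842 stood between 0.74 and 4.29 in WT and between 13.8 and 24.6 in TBH (8.24-fold). BGIBMGA012548 had the largest fold of these 18 rows, 20.9, at low values of 0.03 to 0.24 in WT and 2.45 to 2.96 in TBH.

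On the lower side, BGIBMGA012371 had WT values of 56.83, 129.28 and 80.14 at P2 and of 73.58, 63.66 and 84.58 at P4. Its TBH values were 12.42, 11 and 12.58 at P2 and 15.94, 13.74 and 7.16 at P4, which made the WT mean 6.70-fold that of TBH. BGIBMGA012854 ran from 15.1 to 63.7 in WT and from 1.81 to 8.96 in TBH (6.52-fold). BGIBMGA008800 stood between 5.35 and 13.3 in WT and between 1.30 and 2.62 in TBH (5.22-fold). In these 3 rows the lines did not overlap, by the rule.

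Many members were low even in the line where they were higher. The mean of TBH was under 5 in 14 and at least 10 in 23 of the 45 higher rows, with a median of 10.9. In the 25 lower rows the mean of WT was under 5 in 7 and at least 10 in 10, with a median of 8.76. At the edge of the ratio, BGIBMGA010466 (2.08) and BGIBMGA002426 (2.12) were the last higher rows included. Just outside, again without overlap, lay BGIBMGA006905, at means of 24.97 in WT and 50.9 in TBH (1.9968), and BGIBMGA005903, at means of 0.16 and 1.31 (1.99). Among lower rows, BGIBMGA009856 (0.4997) and BGIBMGA001488 (0.444) were the last included, and BGIBMGA010490 (0.515) and BGIBMGA013986 (0.528) the first left out. In all, 25 further unnamed rows were higher and 17 lower without overlap at a ratio short of the rule. The gap between the lines also varied. For BGIBMGA012939 the lowest TBH value, 31.53, nearly touched the highest WT value, 31.41.

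The ratio of the lines, taken at each stage alone, was at least 2-fold at both P2 and P4 in 39 of the 45 higher and 23 of the 25 lower rows, a count that the rule favours. For the higher rows, the median log2 ratio of (mean + 1) was 1.58 at P2 and 1.79 at P4, and 28 of 45 had the larger ratio at P4. For the lower rows it was -2.49 at P2 and -1.84 at P4, and 21 of 25 had the larger ratio at P2. For each of the 5235 rows tested below, the log2 stage change in WT was subtracted from that in TBH. The median of this difference was 0.19 over all rows, 0.18 over the higher set and 0.38 over the lower set. These counts are therefore not read as particular to the members. Within each set, the log2 ratios at P2 and P4 correlated across rows at 0.793 (45 rows) and 0.822 (25 rows). The rule used the values of both stages, so this is a description only. It rests in part on rows at 0 in a whole line. Some rows departed from this. BGIBMGA005727 had a ratio of 4.18 at P2 and 12.9 at P4, BGIBMGA013653 of 2.27 and 7.51, and BGIBMGA005460 of 28.6 and 7.07. BGIBMGA011398 went from 9.12 at P2 to 2.71 at P4.

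**Figure D3:**
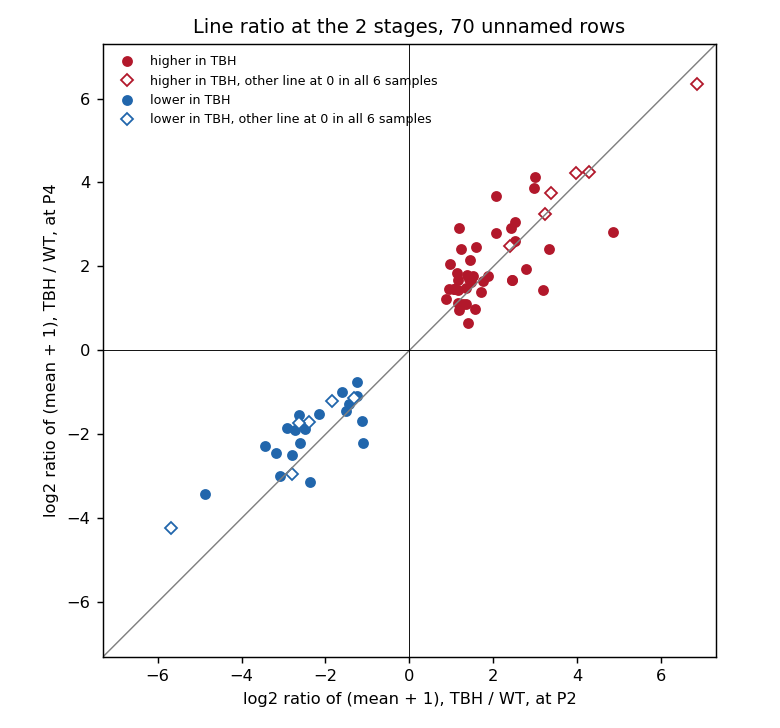
Log2 ratio of (mean + 1) of TBH over WT at P2 (horizontal axis) and at P4 (vertical axis) for the 70 unnamed rows, with open diamonds for rows at 0 in all 6 samples of a line. The grey line marks equal ratios; 21 of the 25 lower rows lie on the side of a larger ratio at P2 and 28 of the 45 higher rows on that of a larger ratio at P4. Over all 5235 tested rows, the difference in log2 stage change of a row, TBH minus WT, had a median of 0.19.

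Within the line where a row was higher, the spread among replicates varied widely between rows. The median coefficient of variation of the 45 higher rows over 3 TBH samples was 17.7% at P2 and 26.96% at P4, and that of the 25 lower rows over 3 WT samples was 41.3% at P2 and 21.6% at P4. The largest coefficients were 52.4% at P2 and 72.5% at P4 among the higher rows. Among the lower rows they were 142.8% at P2 and 75.2% at P4. Single libraries moved with these spreads. WT P2 replicate 2 was the lowest of its group in 17 of the 25 lower rows, and TBH P4 replicate 3 was the highest of its group in 26 of the 45 higher rows. How often this holds over all rows was not computed. TBH P4 replicate 3 also had the most rows above 0 of its group, 7485, but the lowest sum over the 45 higher rows, 1737.24. The part of these libraries in the choice of rows was not tested beyond leaving them out. Without WT P2 replicate 2, 53 rows instead of 25 met the rule as lower, 24 of them among the 25, and without WT P2 replicate 1, 70 instead of 45 met it as higher, which included all 45. Fewer samples make non-overlap easier to meet.

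The stages were compared within each line to ask whether these rows also change between P2 and P4. The rule did not use this contrast directly. It kept the lines apart over both stages together, though, so a row with a large stage change could fail it more easily. A low count of members called may thus be set in part by the rule. A linear model on log2(value + 1) was fitted with limma to the 5235 rows that reached 1 in 3 or more samples, a filter that all 70 unnamed rows passed, and p-values were adjusted after Benjamini and Hochberg over all 5235. Over all tested rows the median log2 change from P2 to P4 was -0.42 in WT and -0.21 in TBH, and changes are given relative to it, while the tests are of the unshifted change. In WT, 0 of the 70 rose and 1 fell at an adjusted p under 0.05, and 13 were past an unadjusted p of 0.05. Of all tested rows, 1.01% rose and 3.09% fell, and 1174 of the 5235 were past the unadjusted p. In TBH, 0 of the 70 rose and 0 fell in limma, with 7 past an unadjusted p of 0.05. Of all tested rows, 0.363% rose and 1.34% fell in TBH, and 565 were past the unadjusted p. In each line, 6 of the 70 were listed at 0 in all its samples. These passed the filter through the other line alone and could not be called. Further rows also passed it only through the other line and lay near 0 in the line tested. Examples are BGIBMGA012548 in WT (0.03 to 0.24) and BGIBMGA012226 in TBH (up to 0.14). The counts of members are therefore not read against the background.

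BGIBMGA012939 was the row that fell in WT. It had 31.16, 26.04 and 31.41 in WT at P2 and 11.16, 12.85 and 10.89 at P4, without overlap. The change was -0.85 relative to all rows, or -1.27 ± 0.22 (SE) unshifted, with a limma adjusted p = 0.0056. In TBH it stood at 53.65, 65.36 and 69.5 at P2 and at 31.55, 31.53 and 39.05 at P4, again without overlap, and did not pass (relative change -0.65, limma adjusted p = 0.089). The call in WT ended with quantile normalization (adjusted p = 0.139) and with the 6 WT samples fitted alone (0.0725), and over 21 alternatives the adjusted p ran from 0.00306 to 0.139.

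BGIBMGA005727 had the smallest p among the 70 in TBH. It had TBH values of 22.41, 30.91 and 31.32 at P2 and of 118.03, 146.48 and 79.43 at P4, so that the stages did not overlap. In WT it had 6.64, 1.75 and 9.56 at P2 and 9.01, 4.9 and 9.99 at P4, where the stages overlapped. In TBH the relative change was 2.17 (1.96 ± 0.47, SE, unshifted) and did not pass (limma adjusted p = 0.072). It passed in 5 of 21 alternatives, among them quantile normalization (0.0318) and the fit without WT P2 replicate 2 (0.0106). BGIBMGA002363 and BGIBMGA004966 came next after BGIBMGA012939 in WT, with relative changes of -0.90 and -1.18 and limma adjusted p-values of 0.051 and 0.053. BGIBMGA002363 had WT values of 34.73, 90.99 and 75.79 at P2 and of 19.08, 27.44 and 27.36 at P4. BGIBMGA011398 and BGIBMGA012226 leaned the other way in WT, with relative changes of 2.42 and 1.46 (limma adjusted p = 0.060 for both). None of these 4 passed as fitted here. Over their alternatives, BGIBMGA002363 and BGIBMGA011398 each passed in 5, and BGIBMGA004966 and BGIBMGA012226 in 3. These 4 rows were named after their values were seen.

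Whether the stage change differed between the lines was tested as an interaction in the same fit. In limma, 0 of the 70 rows passed, 5 were past an unadjusted p of 0.05, and the smallest adjusted p was 0.717. Of all tested rows, 269 were past the unadjusted p, and 0.115% passed with a positive and 0.172% with a negative difference. For BGIBMGA005727, the stage change was 1.25 larger in TBH on the log2 scale relative to all rows (limma adjusted p = 0.964). The rule asked for separated lines at both stages, which limits how far this contrast can go in these rows. A different stage change in the 2 lines was not detected for any of them, which does not show that the changes were alike.

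**Figure D4:**
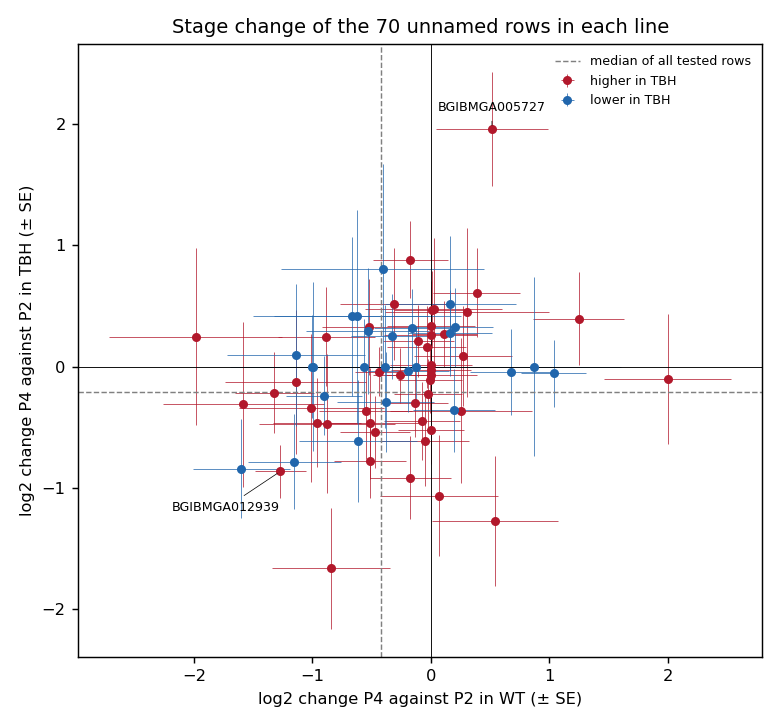
Log2 change from P2 to P4 in WT (horizontal axis) and in TBH (vertical axis) for the 70 unnamed rows, with SEs of the limma fit as bars; dashed lines mark the medians of all 5235 tested rows. BGIBMGA012939, at -1.27 in WT, is the only row past an adjusted p of 0.05, and BGIBMGA005727, at 1.96 in TBH, did not pass.

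Some members have consecutive ID numbers. The table gives no positions, so a shared number range is a feature of the names and does not show that the genes are neighbours. In 4 pairs of members the numbers differ by 1, and both rows of each pair went in the same direction. BGIBMGA000884 and BGIBMGA000885, described above, were both higher in TBH. The rows numbered around the 4 pairs are unnamed too and would be members if they met the rule. Nothing is therefore read from their overlap, here or in the other pairs. BGIBMGA000883 stayed under 1, BGIBMGA000886 had WT values of 23.2 to 85.5 and TBH values of 9.52 to 55.5, and BGIBMGA000882 had 2.20 to 33.4 and 6.78 to 36.3, with overlap in both.

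BGIBMGA001431 and BGIBMGA001432 were both listed at 0 in all TBH samples. BGIBMGA001430, the number before them, was measured in both lines, at 4.19 to 13.2 in WT and 4.0 to 7.88 in TBH. BGIBMGA010211 and BGIBMGA010212 were both lower in TBH, the first at 0 in all TBH samples and the second in 4 of 6. BGIBMGA010210 before them overlapped between the lines, at 2.88 to 15.7 in WT and 2.42 to 14.6 in TBH. BGIBMGA014464 had WT values of 8.23, 6.48 and 9.27 at P2 and of 6.92, 8.63 and 13.04 at P4. In TBH it had 3.29, 2.83 and 3.25 at P2 and 2.92, 1.53 and 2.32 at P4 (3.26-fold, WT over TBH). BGIBMGA014465 ran from 34.8 to 58.2 in WT and from 9.0 to 22.7 in TBH (2.88-fold). The 2 rows of this pair thus had ratios of like size, and the rows before them, BGIBMGA014462 and BGIBMGA014463, stayed under 1. Within 5 numbers of each other lay 7 pairs of members next in number, of which 6 went in the same direction. The exception was BGIBMGA010238, higher in TBH, beside BGIBMGA010240, lower in TBH. No share of agreeing pairs over other rows was computed, so nothing is read from these counts of pairs. Whether the 2 rows of a pair share reads cannot be read from the table.

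**Figure D5:**
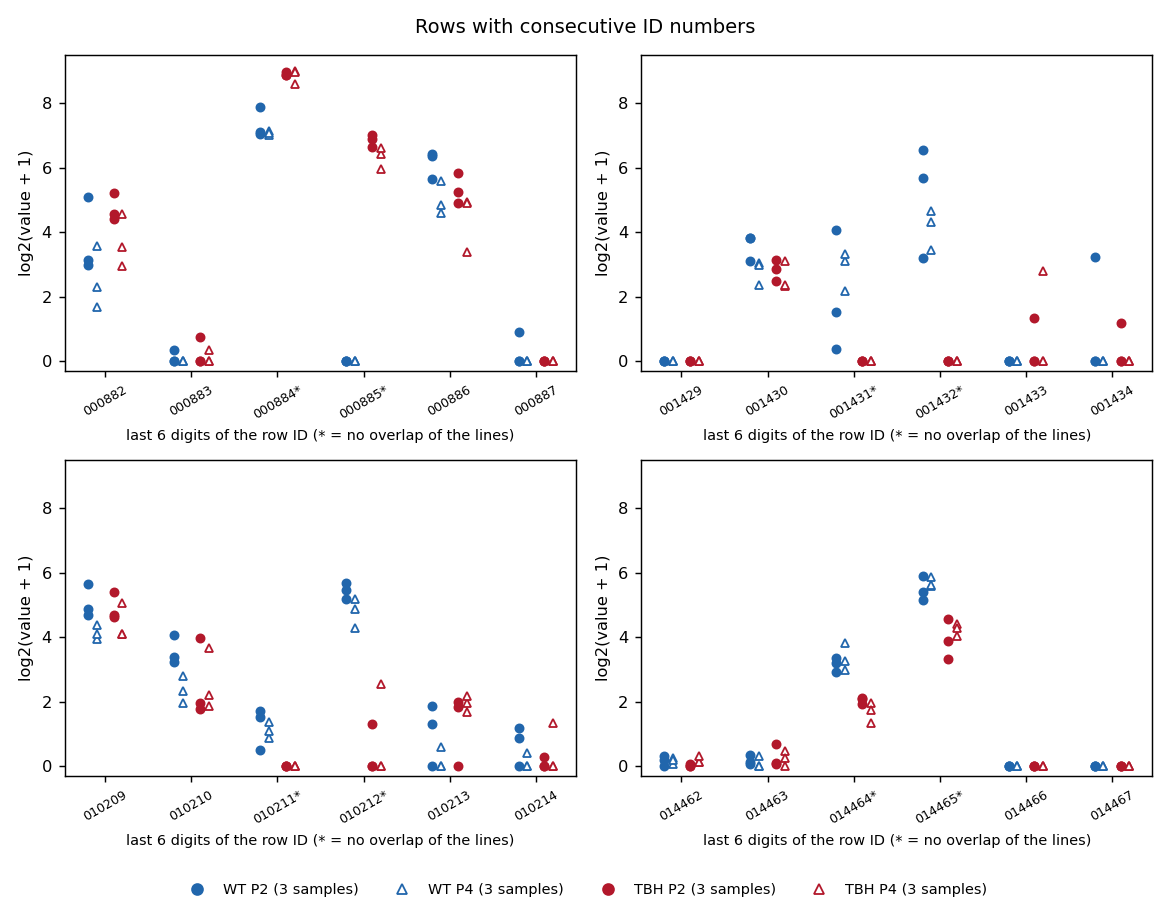
Values on the log2(value + 1) scale (vertical axis) of the 4 pairs of members with consecutive ID numbers (marked by an asterisk) and of the 2 rows before and after each pair in number (horizontal axis), 1 point per sample. Members of a pair move in the same direction. The rows around them overlap between WT (blue) and TBH (red) or lie near 0. A row that met the rule would itself be a member, so nothing is read from this.

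Among the rows with a name or product, 7 met the same value rule, 4 higher and 3 lower in TBH. By the ratio of the rule, the first of them was the beta-hexosaminidase BGIBMGA004194 (16.3), an enzyme that removes terminal hexosamines. Of the 70 unnamed rows, 5 had a larger ratio, an order that depends on the added 1, since 4 of the 5 were at 0 in all 6 samples of a line. The 5 were BGIBMGA000885, BGIBMGA013109 and BGIBMGA013433 among the higher rows and BGIBMGA001432 and BGIBMGA010212 (17.4) among the lower rows. The single row with a name or product that was above 0 in all WT samples and listed at 0 in all TBH samples was a histone deacetylase, BGIBMGA011747.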

How the data were processed

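The table holds 12 sample columns and 4 columns of the authors' group means, whose distance from the means computed here was at most 3.33e-06. What the authors deposited is a normalized signal for each transcript, and neither header nor labels name its unit. Whether low values fall in steps of whole reads was not tested. The authors' tools include Cufflinks and DESeq2, per the submitters' processing notes, which give no versions or roles. For aligner, genome build and annotation, nothing is given in the sources used here. Titles give each sample's line and stage. The members and lists were chosen with earlier results of these data known. Stage contrasts and their difference were fitted with limma 3.58.1 in R 4.3.3 to log2(value + 1), without scaling, with 1 mean per group over 12 samples and eBayes with trend; with the pseudocount of 1, changes of low values come out smaller. The fit was tested on simulated data with normal noise and with changes planted only in rows of higher level. That test does not cover members at low values or at 0. Rows named are the 12 largest ratios each way, rows at 0 in a line, rows past a stage test, the edges of the rule, the most abundant and those with consecutive IDs; others were picked after their values were seen. Alternatives were other pseudocounts, filters and scalings, limma without trend, fewer samples and a replicate block. Same-numbered samples of WT at the 2 stages had deviations correlated at -0.0179 to 0.057 and those of TBH at -0.0473 to 0.0434. Between the lines these correlations ran from -0.176 to 0.239, with no common sign. The numbers were therefore not used to pair samples in the main fit.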

Additional observations from a re-analysis of the deposited data

How the results depend on the processing

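The members depend on the rule's settings. With a pseudocount of 0.1 in the ratio, 62 rows were higher and 39 lower, with 5, 28 and 15. A ratio of at least 4 or at most 0.25 left 18 and 15, and a mean of at least 10 in the higher line left 23 and 10. With equal totals 39 of the 45 and 22 of the 25 were kept, and with quantile normalization 37 and 22. Leaving out each replicate in turn gave 47 to 70 higher and 27 to 53 lower rows, and leaving out a pair of libraries together, replicate 2 of WT P2 and replicate 3 of TBH P4, an alternative chosen after seeing the data, gave 57 and 70. With a mean over all samples of at least 10, only 19 of the 70 members were tested for a stage change. In WT, 3 of these 19 were called (1 rose, 2 fell), and 10.5% of all rows tested. Quantile normalization called 3 members (all rose, and the call of BGIBMGA012939 was lost) and 4.07% of all rows. Equal totals called 2 (both fell) and 3.61%, and the fit without trend 3 (1 rose, 2 fell) and 3.65%. The 2 groups alone called 0 and 1.38%. Without a replicate, 1 to 5 members and 2.25% to 10.1% of all rows were called, the 5 and the 10.1% without WT P2 replicate 2. Without both libraries it was 11 and 22.8%. In TBH, 1 was called with quantile normalization (1.76% of all rows) and 1 with the 2 groups alone (1.59%). Without a replicate it was 0 to 1 (1.05% to 2.35%), and without both libraries 2 (2.94%). The difference between the lines stayed at 0 in all alternatives, which called 0.0624% to 0.439% of all rows. The replicate block gave 1, 0 and 0 members, and 2.69%, 1.28% and 0.153% of all rows. The cause of these shifts was not tested. Depth is unknown, so members at low values carry an unknown counting error.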
